A study of Mus musculus with 6 samples.

Results

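The 8 genes described here encode the collagens of basement membranes: the 6 chains of type IV collagen (Col4a1, Col4a2, Col4a3, Col4a4, Col4a5 and Col4a6) and the multiplexin collagens Col15a1 and Col18a1. They were chosen by name, as a gene family, and make up 8 of the 32285 features counted in each library. Single-nucleus RNA sequencing was carried out on DAPI-sorted nuclei from dissected photothrombotic lesions of the cortex of adult mice on a C57BL/6 background, taken 7 or 21 days post injury (dpi). At each time there was a wild-type library for which the labels name no treatment (Ctrl), a library of mice given ADWA11, an antibody that blocks integrin αvβ8, intraperitoneally on the day of injury and weekly from then on (ADWA11), and a library of tamoxifen-treated Col1a2(creER);Tgfbr2(flox) mice (Tgfbr2-cKO). In the last of these Cre is driven by Col1a2, which directs the deletion of the TGFβ receptor gene to fibroblasts. Each of the 6 libraries held the pooled tissue of 1 male and 1 female mouse. With 1 library per group there is no replicate library, no test between groups was run and no p value is given; every interval below is an exact 95% interval that covers counting error only.

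Type IV collagen is the network-forming scaffold of every basement membrane, the sheet on which endothelial and epithelial cells rest and which surrounds muscle, fat and Schwann cells. The Col4a1 and Col4a2 chains form the trimer present in nearly all tissues; Col4a3, Col4a4 and Col4a5 form that of the kidney glomerulus, the lung and the inner ear, and Col4a5 joins with Col4a6 in the basement membrane of smooth muscle and some epithelia. Col15a1 and Col18a1 carry heparan or chondroitin sulphate chains and tie the sheet to the stroma beneath it, and the C-terminal fragment of Col18a1 is endostatin, an inhibitor of angiogenesis. In the brain, basement membranes lie around vessels, between endothelial cells, mural cells and astrocyte endfeet, and beneath the pia, where meningeal fibroblasts and the glia limitans meet. After an injury that breaches the meninges, fibroblasts enter the lesion and a new glia limitans forms along its border.

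The type IV genes lie in head-to-head pairs. In the mouse build GRCm38, Col4a1 occupies chr8:11198423-11312826 on the minus strand and Col4a2 chr8:11312805-11449287 on the plus strand; Col4a6 occupies chrX:141165403-141474076 on the minus strand and Col4a5 chrX:141475385-141689234 on the plus strand; and Col4a4 (chr1:82448423-82586849, minus strand) and Col4a3 (chr1:82586921-82722059, plus strand) form the other pair. Col15a1 lies at chr4:47208161-47313167 on the plus strand and Col18a1 at chr10:77052178-77166548 on the minus strand. The RefSeq start sites of Col4a1 and Col4a2 are 21 bases apart and those of Col4a6 and Col4a5 are 1343 bases apart. The windows around these 4 starts (250 bases before to 50 bases after, GRCm38.p6, 5′ to 3′ on the strand of the gene) are shown because the levels of the genes in each of these pairs varied together over cell classes and libraries, while the pairs differed from each other. Capitals mark the GC box (GGGCGG) and the CCAAT box, searched on both strands.
Col4a1 (chr8:11312777-11313076, minus strand): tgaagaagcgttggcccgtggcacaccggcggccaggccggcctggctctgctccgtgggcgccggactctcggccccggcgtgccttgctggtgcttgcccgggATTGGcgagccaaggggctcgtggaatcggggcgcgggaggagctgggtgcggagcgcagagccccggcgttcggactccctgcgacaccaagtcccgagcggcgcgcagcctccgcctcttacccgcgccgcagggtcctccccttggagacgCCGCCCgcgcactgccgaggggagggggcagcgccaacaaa
Col4a2 (chr8:11312555-11312854, plus strand): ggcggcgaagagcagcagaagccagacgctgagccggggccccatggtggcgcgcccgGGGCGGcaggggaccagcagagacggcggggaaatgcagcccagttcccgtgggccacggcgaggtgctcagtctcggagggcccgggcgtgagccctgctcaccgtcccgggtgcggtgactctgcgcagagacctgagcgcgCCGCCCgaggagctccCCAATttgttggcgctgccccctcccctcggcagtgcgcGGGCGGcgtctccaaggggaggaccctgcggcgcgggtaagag
Col4a5 (chrX:141475169-141475468, plus strand): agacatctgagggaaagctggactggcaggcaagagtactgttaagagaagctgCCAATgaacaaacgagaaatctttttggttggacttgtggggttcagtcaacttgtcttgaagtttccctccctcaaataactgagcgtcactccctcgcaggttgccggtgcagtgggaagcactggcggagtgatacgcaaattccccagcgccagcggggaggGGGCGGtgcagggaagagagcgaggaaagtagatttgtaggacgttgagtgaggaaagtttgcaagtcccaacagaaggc
Col4a6 (chrX:141474027-141474326, minus strand): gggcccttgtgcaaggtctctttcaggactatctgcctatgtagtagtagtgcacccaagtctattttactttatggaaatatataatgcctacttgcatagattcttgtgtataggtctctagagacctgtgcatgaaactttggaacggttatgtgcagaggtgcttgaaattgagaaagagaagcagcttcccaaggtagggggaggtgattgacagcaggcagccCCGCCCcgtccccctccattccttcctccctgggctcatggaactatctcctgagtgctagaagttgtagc

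The Col4a1 and Col4a2 windows share 78 bases, read from opposite strands, so that 1 match there is counted for both genes. Their GC content was 74.0% and 73.7%, against 52.7% for Col4a5, 48.3% for Col4a6 and a median of 52.7% over all 32851 windows of the RefSeq table. A GC box was found once in the Col4a1 window, 3 times in that of Col4a2 and once in those of Col4a5 and Col4a6; 35.7% of all windows held one. A CCAAT box was found once in each of the Col4a1, Col4a2 and Col4a5 windows and 37.4% of all windows held one. Neither a TATA box (TATAAA, in 13.6% of all windows) nor an AP-1 site (TGANTCA, in 7.81%) was found in any of the 4 windows, which says only that these letters were not there. The motifs did not overlap each other in the windows shown.

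Of 67360 barcodes 61231 nuclei were used, between 6535 and 12928 per library, with a median of 4601.5 to 8222.5 UMIs per nucleus; 553 barcode sequences occurred in more than 1 library. The Tgfbr2-cKO library at 7 dpi stood apart: 6057 of its 10582 nuclei were neuronal, against 28 to 963 nuclei in the other libraries, and it held 329 fibroblasts, 38 endothelial and 40 mural nuclei, where the Ctrl library at 7 dpi held 1993, 271 and 90. Classes with fewer than 50 nuclei in a library are given no value, so the vascular classes have none in that library. Classes were rebuilt here from marker genes. Levels are UMIs of a gene per 1000000 non-mitochondrial UMIs of all nuclei of a class in a library (CPM). All 8 fibroblast markers were detected in the fibroblast class of every library, and their summed level was 1773 CPM in the Tgfbr2-cKO library at 21 dpi and 4210 to 8014 CPM in the other 5. All 10 endothelial markers were detected in every endothelial class with a value (9523 to 13953 CPM). Tgfbr2 itself was at 318, 245 and 238 CPM in fibroblasts of the Ctrl, ADWA11 and Tgfbr2-cKO libraries at 7 dpi and at 221, 193 and 184 CPM at 21 dpi. The log2 ratio of Tgfbr2-cKO to Ctrl was −0.42 at 7 dpi and −0.27 at 21 dpi, which does not pass 1.5-fold; 3′ counts of whole nuclei do not read the deleted exon, so this checks the label weakly.

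Values are given in the order Ctrl, ADWA11 and Tgfbr2-cKO at 7 dpi, then Ctrl, ADWA11 and Tgfbr2-cKO at 21 dpi, unless a sentence says otherwise. The level of one gene is compared across classes and libraries, and levels are not compared between genes, because they are not scaled to gene length. Over all libraries the members gave 72267 UMIs for Col4a1, 58782 for Col4a2, 402 for Col4a3, 1526 for Col4a4, 32000 for Col4a5, 22123 for Col4a6, 6666 for Col15a1 and 21991 for Col18a1. Col4a3 was therefore at the limit of what these libraries can measure, and its ratios rest on few molecules.

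Fibroblasts were 21.0% of the nuclei and held 62.2% of the Col4a1 UMIs, 60.8% of Col4a2, 62.1% of Col4a5, 47.4% of Col4a6 and 72.2% of Col18a1, but 34.2% of Col15a1, 34.6% of Col4a3 and 26.0% of Col4a4. Endothelial nuclei, 2.84% of the total, held 12.1% of the Col4a1, 11.0% of the Col4a2 and 23.0% of the Col15a1 UMIs. Mural nuclei, the pericytes and smooth muscle cells of the vessel wall, were 0.813% of the total and held 23.6% of the Col4a3 UMIs. Astrocytes, 5.33% of the total, held 37.7% of the Col4a4, 27.3% of the Col4a5 and 40.7% of the Col4a6 UMIs. Neurons, 7503 of the 61231 nuclei, held 7763 of the Col4a1 and 8784 of the Col4a2 UMIs, where endothelial nuclei held 8755 and 6460. Of these neurons 6057 came from the Tgfbr2-cKO library at 7 dpi. Pooled neuronal levels were 65.4 and 74.0 CPM, below the 158 and 129 CPM of all nuclei. Myeloid nuclei, 23023 of the total, had Col15a1 at 11.0 CPM, below the 14.6 CPM of all nuclei. Thus the genes were not spread alike over the classes. Col4a1, Col4a2 and Col15a1 were concentrated in fibroblasts and vessels, and Col4a5 and Col4a6 in fibroblasts and astrocytes.

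**Figure D1:**
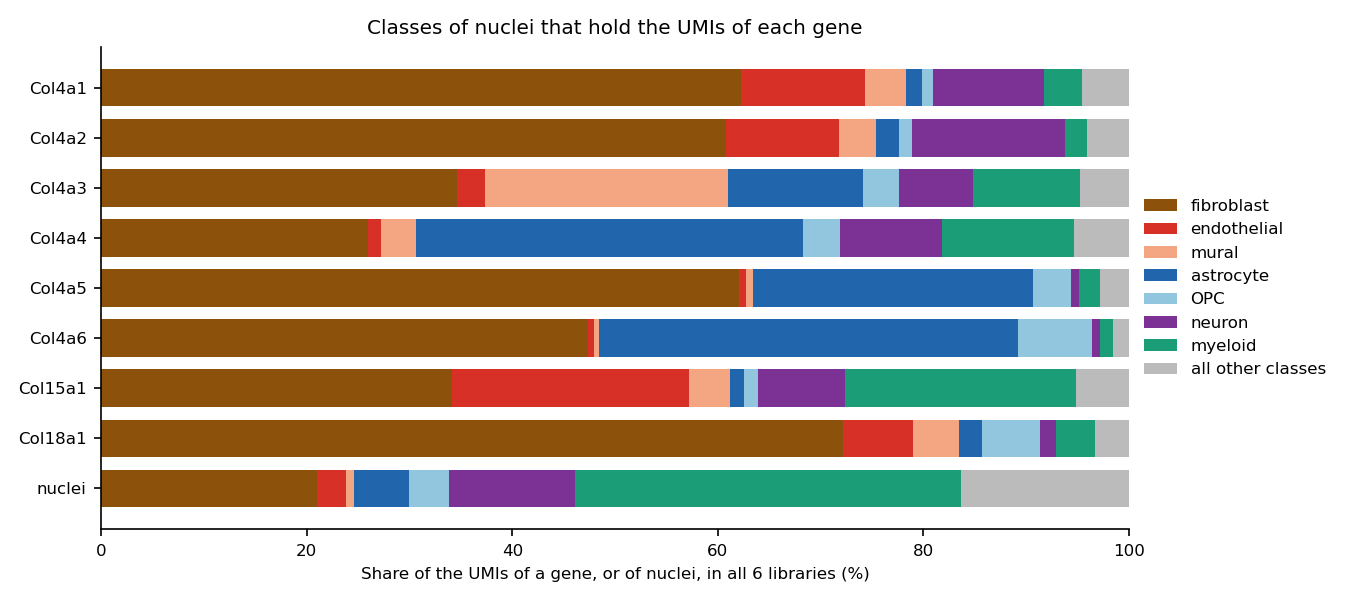
Share of the UMIs of each member (horizontal axis, percent) that lay in each class over all 6 libraries, with the share of nuclei in the lowest bar; OPC stands for oligodendrocyte precursors. Fibroblasts held 72.2% of the Col18a1 UMIs with 21.0% of the nuclei, and astrocytes 40.7% of the Col4a6 UMIs with 5.33%.

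In all nuclei of a library together, Col4a1 was at 318, 238, 71.3, 204, 111 and 67.7 CPM and Col4a5 at 127, 97.4, 10.9, 129, 42.4 and 63.6 CPM. Col4a1 was lowest in the Tgfbr2-cKO libraries and Col4a5 in that at 7 dpi. In such sums fewer cells of a type and less RNA per cell cannot be told apart: in the Tgfbr2-cKO library at 7 dpi fibroblasts were 3.11% of the nuclei and held 14.7% of the Col4a1 UMIs, while neurons were 57.2% and held 78.7%, and in the Ctrl library at 7 dpi fibroblasts were 24.4% of the nuclei and held 70.2%. All further values are therefore within classes.

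Col4a1 and Col4a2, the chains of the ubiquitous trimer, were highest in the vascular classes. In mural nuclei Col4a1 was at 1665 CPM (Ctrl) and 1312 CPM (ADWA11) at 7 dpi and at 804, 696 and 595 CPM (Ctrl, ADWA11, Tgfbr2-cKO) at 21 dpi. In endothelial nuclei it was at 1161 and 1536 CPM at 7 dpi and 547, 782 and 781 CPM at 21 dpi. In fibroblasts it was at 722, 623 and 598 CPM at 7 dpi and 299, 215 and 199 CPM at 21 dpi. By the median over libraries the order was mural (804), endothelial (782) and fibroblast (449), and the ranges of these neighbours overlapped. Neurons (47.3 to 104 CPM) and astrocytes (31.6 to 57.3 CPM) lay below every fibroblast value. Col4a2 took the order endothelial (median 746 CPM), mural (599 CPM) and fibroblast (333 CPM), again with overlapping ranges.

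Col4a5 and Col4a6 had another order of the classes, with astrocytes at the top. Astrocyte Col4a6 was at 696, 503, 163, 508, 407 and 215 CPM, and fibroblast Col4a6 at 211, 146, 194, 47.8, 21.8 and 106 CPM. Astrocyte Col4a5 was at 606, 524, 202, 443, 374 and 253 CPM, and fibroblast Col4a5 at 317, 252, 283, 147, 75.5 and 156 CPM. Astrocytes were above fibroblasts for both genes in every library but the Tgfbr2-cKO library at 7 dpi, where the order was the opposite. Oligodendrocyte precursors came next for Col4a6 (20.9 to 162 CPM over 5 libraries), and endothelial nuclei were low for both (Col4a5 6.88 to 34.2 CPM, Col4a6 1.55 to 26.5 CPM).

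The remaining chains were each led by a vascular class or shared with astrocytes. Col4a3 was measurable above its floor in mural nuclei, at 10.4 and 21.2 CPM at 7 dpi and 33.3, 9.80 and 121 CPM at 21 dpi, and was at 4.71 CPM or less in astrocytes, the next class. Col4a4 was at 7.93 to 38.3 CPM in astrocytes and 11.9 to 54.1 CPM in mural nuclei, which overlap, and at 2.66 to 9.29 CPM in fibroblasts, which do not overlap with mural nuclei. Col15a1 was highest in endothelial nuclei, at 198 and 287 CPM at 7 dpi and 89.8, 158 and 92.8 CPM at 21 dpi, with a range that overlapped that of mural nuclei (44.1 to 186 CPM). Col18a1, the endostatin precursor, was at 647 and 398 CPM in mural nuclei at 7 dpi and at 229.6, 294 and 140.0 CPM at 21 dpi, and at 239, 295, 286, 50.4, 67.5 and 81.2 CPM in fibroblasts.

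**Figure D2:**
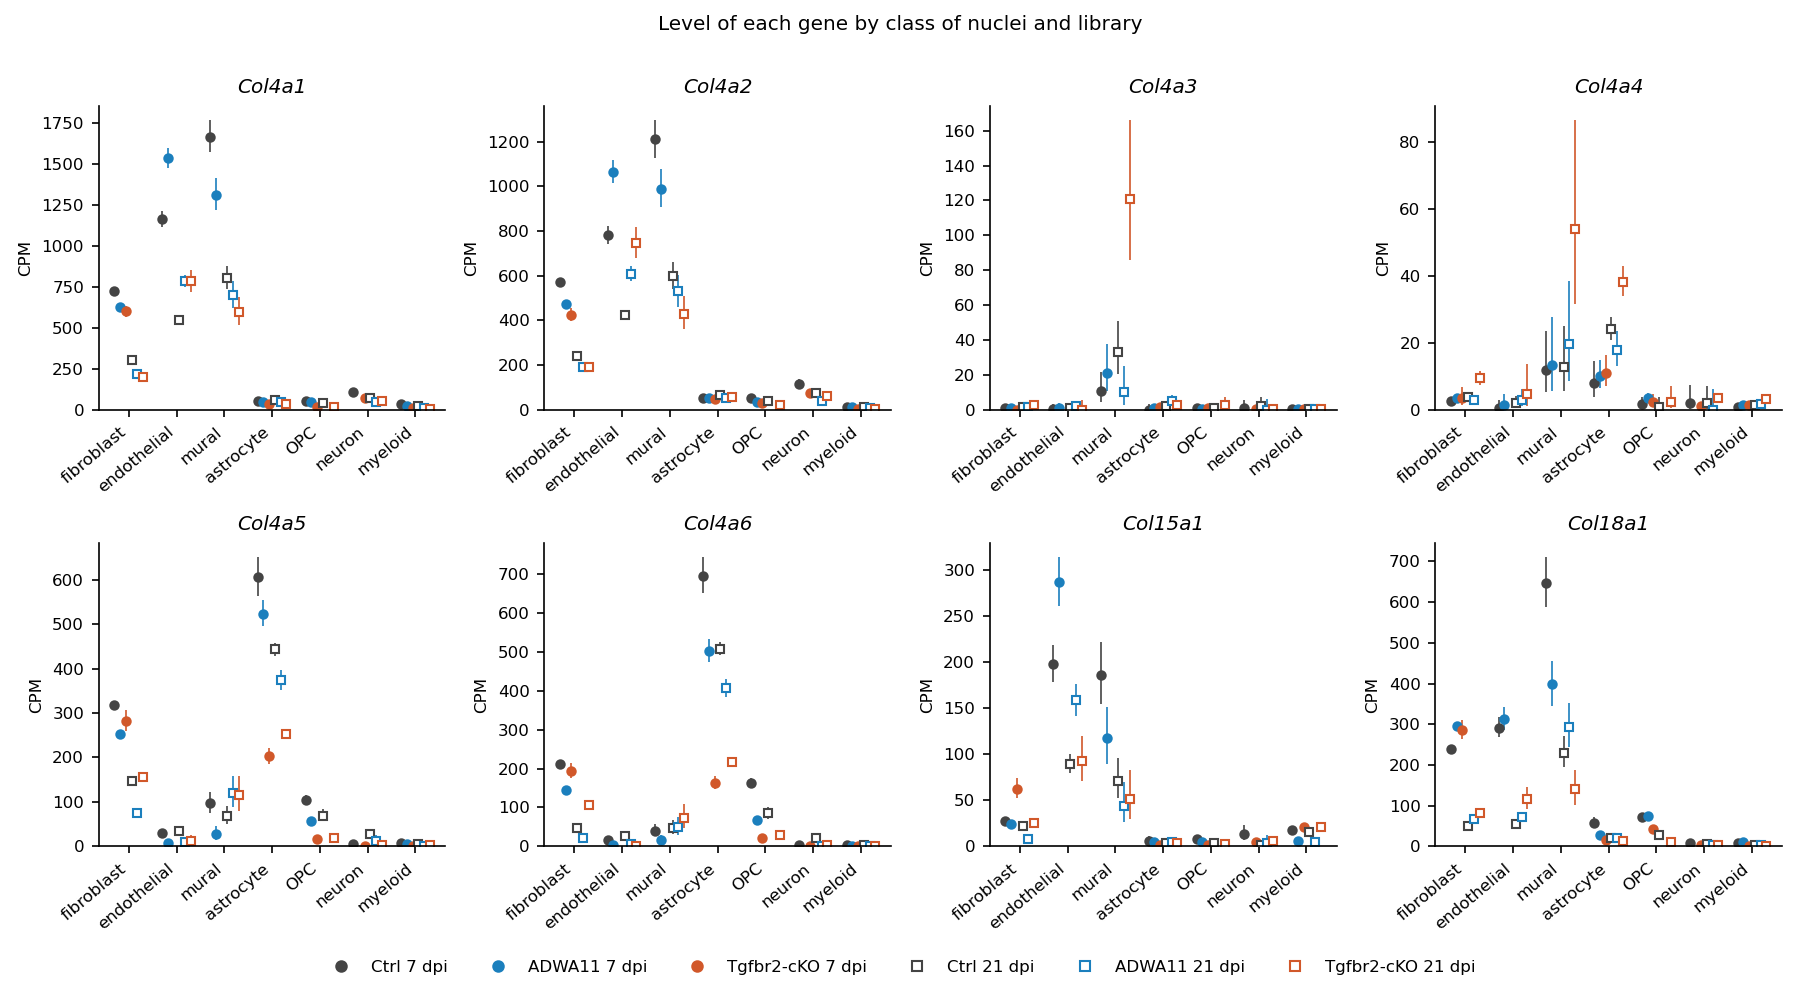
Level of each member (vertical axis, CPM on a linear scale) in each class and library. Grey, blue and orange stand for Ctrl, ADWA11 and Tgfbr2-cKO, filled circles for 7 dpi and open squares for 21 dpi. Bars are exact 95% Poisson intervals. Col4a1 reached 1665 CPM in mural nuclei, and Col4a6 696 CPM in astrocytes.

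Free RNA was not measured, so the level in myeloid nuclei was taken as a background for these levels, whatever its source. Myeloid nuclei, which should hold little basement membrane collagen, had Col4a1 at 34.9, 23.7, 6.77, 21.9, 10.1 and 5.52 CPM, which is the order of the libraries by the level in all nuclei, and 2.45% to 15.0% of them held a Col4a1 UMI. The share of fibroblasts with a Col4a1 UMI was 80.3%, 83.9%, 66.6%, 59.9%, 60.9% and 50.1%. Since depth differed (median 5698 to 9473 UMIs in fibroblasts and 3353 to 6727 in myeloid nuclei), nuclei were also thinned to 1000 UMIs. Then 40.3%, 36.7%, 32.3%, 20.5%, 16.8% and 13.8% of fibroblasts held a Col4a1 UMI, against 3.62% or less of myeloid nuclei in any library. Thinned shares were 57.5% and 62.5% in endothelial nuclei at 7 dpi and 36.0%, 45.6% and 36.3% at 21 dpi, and 35.3% to 67.2% in mural nuclei. Astrocyte Col4a6 was found in 37.6%, 30.4%, 11.7%, 32.5%, 28.2% and 16.5% of thinned nuclei. Every one of these shares lay above the myeloid background, whereas astrocyte and neuronal Col4a1 levels were closer to it.

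The balance of the ubiquitous pair differed between classes. Of the UMIs of Col4a1 and Col4a2 together, Col4a1 made up 55.7% in fibroblasts (55.4% to 56.1%), 57.5% in endothelial nuclei (56.8% to 58.3%) and 57.5% in mural nuclei. In astrocytes it made up 44.9% (42.9% to 46.9%) and in neurons 46.9% (46.2% to 47.7%), below the share in fibroblasts and vessels. In myeloid nuclei it made up 68.1% (66.6% to 69.6%). One source of free RNA would keep the ratio of its genes in every class of a library; these shares are pooled over libraries, and the part of free RNA in them was not tested.

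Over the 53 sums of a class in a library (10 classes, each with 50 nuclei or more) the pairs of genes moved together. Pearson's correlation of log2(CPM + 1) was 0.97 between Col4a1 and Col4a2 and 0.93 between Col4a5 and Col4a6, the pairs whose promoters are shown above. Across pairs it was lower, at 0.48 between Col4a1 and Col4a5 and 0.35 between Col4a1 and Col4a6. Col18a1 was nearer to Col4a1 (0.88), Col15a1 less so (0.77), and Col15a1 had a correlation of 0.04 with Col4a6. The points share libraries, depth and base composition and are not replicates, so these are descriptions. Among genes that are no members, the most like Col4a1 were Nr2f2 (0.95), a nuclear receptor of venous endothelium and mesenchyme, and Lamb1 (0.94), a laminin chain. Col4a5 was followed by 2310014F06Rik (0.90) and Sulf1 (0.88), Col4a6 by Dnah7b (0.92) and P4ha3 (0.87), a prolyl hydroxylase subunit that acts on collagen. Nearest to Col18a1 were Lama4 (0.91), the laminin chain of vascular basement membranes, and Akap12 (0.91), and among those most like Col15a1 were Apbb2 (0.83) and the endothelial gene Ecscr (0.83). Col4a4 had no close neighbour (S1pr3, 0.76).

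The first comparison is of days in the Ctrl libraries, and asks how the genes changed in fibroblasts between the early lesion, rich in myofibroblasts, and the late one. A gene was called higher or lower where its levels differed by more than 1.5-fold and it had 50 UMIs or more in the 2 libraries. At 21 against 7 dpi, Col4a1 fell from 722 to 299 CPM (log2 ratio −1.27, −1.31 to −1.23) and Col4a2 from 570.1 to 239.7 CPM (−1.25, −1.29 to −1.21). Col4a5 fell from 317 to 147 CPM (−1.11, −1.17 to −1.05) and Col4a6 from 211 to 47.8 CPM (−2.14, −2.23 to −2.05). Col18a1 fell from 239 to 50.4 CPM (−2.24, −2.33 to −2.16), with an interval that overlaps that of Col4a6. Over the same time the summed markers of oligodendrocyte precursors in Ctrl fibroblasts went from 1137 to 362 CPM and those of astrocytes from 1479 to 1048 CPM, and their part in these values was not tested. The precursor list holds Pdgfra, which is also a fibroblast marker, and the astrocyte markers Slc1a3 and Gja1 were raised in a fibroblast cluster. These sums are therefore not only RNA of other cell types. Thus both pairs and Col18a1 were lower in the fibroblast class of the late Ctrl library. Col15a1 was at 27.5 and 22.0 CPM (−0.32, −0.49 to −0.15) and was not called, and Col4a3 rose from 0.846 to 1.64 CPM (0.96, 0.08 to 1.93), that is from 14 to 51 UMIs. In all, 5 of 8 members were called lower and 1 higher. Over all 15332 genes tested 33.8% were called, 20.8% higher and 13% lower, with a median log2 ratio of 0.06 against −1.18 over the members. The fall with time was also seen within the other groups: Col4a1 fell by 1.59 on the log2 scale in Tgfbr2-cKO and by 1.53 in ADWA11, Col4a6 by 0.87 and 2.74, and Col18a1 by 1.82 and 2.13.

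Each library pools a female and a male mouse, and nuclei were called by Xist and Y-linked genes, so the direction can be read in each sex. In Ctrl at 7 dpi 37.4% of the nuclei that passed the filters were called female and 37.1% male, and the rest were not called. With ADWA11 at 7 dpi these shares were 49.4% and 30.9%, and in Tgfbr2-cKO 59.7% and 22.0%. At 21 dpi they were 51.7% and 26.0% in Ctrl, 27.7% and 55.7% with ADWA11, and 42.4% and 37.1% in Tgfbr2-cKO. Class ratios thus compare libraries of unlike sex mix, and its part in them was not tested. A ratio within a sex compares different mice, so it is no replicate. In female and male nuclei the log2 ratio of 21 to 7 dpi was −1.22 and −1.40 for Col4a1, −0.81 and −1.47 for Col4a5, −1.66 and −2.75 for Col4a6, and −2.26 and −2.22 for Col18a1. The 4 genes were lower at 21 dpi in both sexes. Sex and animal cannot be told apart within a library.

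The fibroblast class is a mix of sub-clusters that changed with time. Myofibroblast-like nuclei (Postn, Cthrc1, Acta2) were 54.4%, 46.9%, 39.5%, 2.00%, 0.496% and 0.332% of fibroblasts. Nuclei of a leptomeningeal, pial type (Lama1, Lamc3) were 25.1%, 17.8%, 38.6%, 5.79%, 4.22% and 8.74%. Dural-like nuclei (Slc47a1, Alpl, Fxyd5) were 2.31%, 4.03%, 4.86%, 44.7%, 78.2% and 9.07%, and arachnoid-like nuclei (Ptgds, Slc6a13, Trpm3) 6.22%, 21.2%, 12.2%, 16.9%, 13.2% and 47.8%. The dural-like sub-cluster also raised Pde11a of the late inner list and Cd80 of the list for lymphocyte-interactive fibroblasts. The dural marker Crabp2 was raised in the late inner-like sub-cluster instead. The pial type also raised the myofibroblast marker Postn and the arachnoid marker Slc6a13. Lama1 and Aldh1a2 of the pial list were raised in arachnoid-like nuclei too, and Cdh18 of the late inner list in myofibroblast-like nuclei. A late inner-like sub-cluster was 30.2% of the Ctrl fibroblasts at 21 dpi. A sub-cluster that markers did not name held 34.0% of the Tgfbr2-cKO fibroblasts at 21 dpi and at most 1.22% of any other library. The members were kept out of the genes that the sub-clusters were built from, but other genes of these nuclei built them, and Col4a6 and Lamc3 were among the 10 leading genes of the pial type, so levels by sub-cluster are descriptions.

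The pial type held the highest levels of Col4a5 and Col4a6. Its Col4a6 was at 814, 699, 485, 547, 481 and 1106 CPM, where myofibroblast-like nuclei had 44.4, 18.4 and 21.9 CPM at 7 dpi and dural-like nuclei 2.72 to 13.4 CPM over 4 libraries. Its Col4a5 was at 991, 932, 678, 776, 542 and 1173 CPM, against 55.8 to 143 CPM in myofibroblast-like nuclei. The ranges of the pial type did not overlap with those of any other sub-cluster for these genes. In each library the pial type also lay above the astrocyte class for both genes. Astrocytes spanned 163 to 696 CPM for Col4a6 and 202 to 606 CPM for Col4a5. By the median, arachnoid-like nuclei came next for both genes, with ranges that overlapped those of myofibroblast-like nuclei. Col18a1 was at 590, 645, 407, 383, 282 and 170 CPM in the pial type and next in myofibroblast-like nuclei, at 139 to 283 CPM, with overlap. Col4a1 was spread more evenly: 922, 715, 812, 632, 294 and 385 CPM in the pial type, and 783, 753, 613 and 776 CPM in the myofibroblast-like nuclei of the 4 libraries that held 50 of them, so these ranges overlapped. In the dural-like sub-cluster Col4a1 was at 150 to 245 CPM, in the arachnoid-like at 71.1 to 480 CPM and in the late inner-like at 194 to 371 CPM. The sub-cluster of the late Tgfbr2-cKO library had Col4a1 at 311, Col4a2 at 288, Col18a1 at 116 and Col4a6 at 5.42 CPM.

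**Figure D3:**
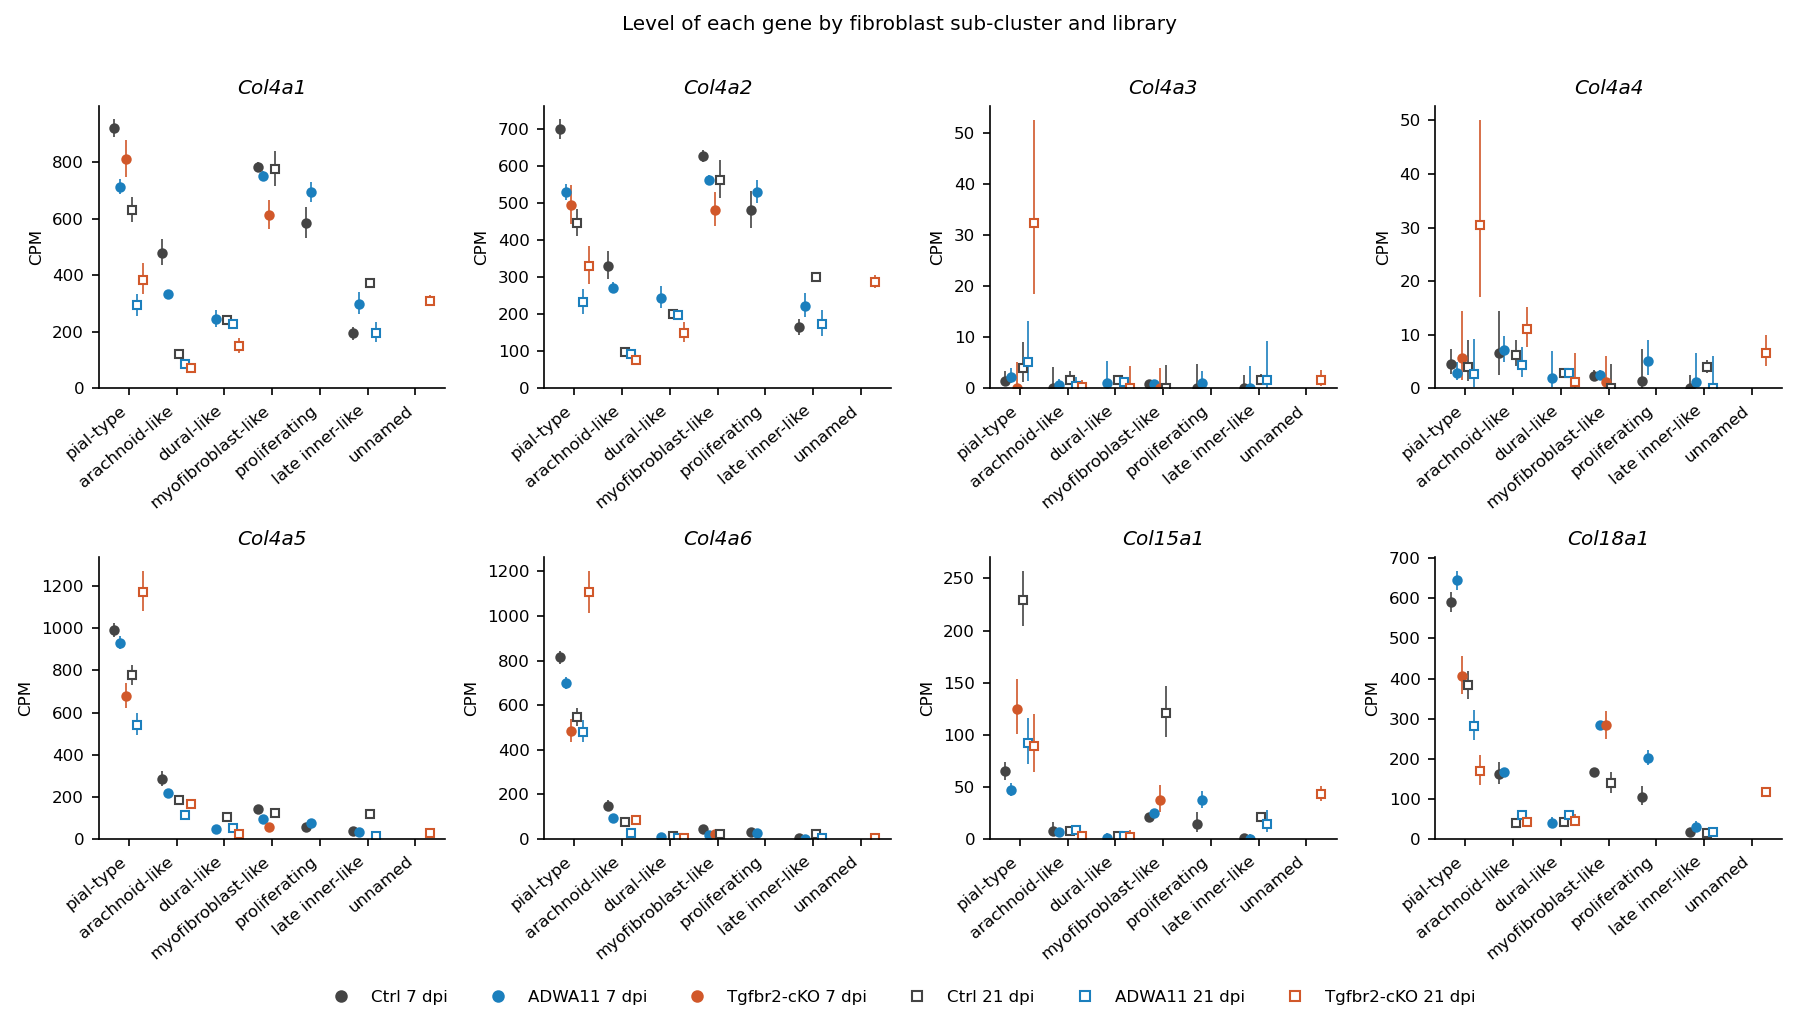
Level of each member (vertical axis, CPM on a linear scale) in each fibroblast sub-cluster and library, with the colours and symbols of the plot of levels by class and exact 95% Poisson intervals. In the pial type Col4a6 lay at 481 to 1106 CPM, above all other sub-clusters.

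The falls with time were smaller with the shared sub-clusters weighted alike, and the part of the mix in them was not tested. This weighting leaves out the dural-like nuclei, 44.7% of the late Ctrl fibroblasts. The sub-clusters shared by both Ctrl libraries, 54.9% of the late and 94.4% of the early nuclei, were weighted by their mix at 7 dpi. Myofibroblast-like nuclei, 85 in the late library, thus weighed most, and no value is given for the mix at 21 dpi. The log2 ratio of 21 to 7 dpi was then −0.18 for Col4a1, −0.29 for Col4a2, −0.30 for Col4a5, −0.61 for Col4a6 and −0.51 for Col18a1. For Col15a1 it was 2.13. Within myofibroblast-like nuclei Col4a1 was at 783 and 776 CPM at 7 and 21 dpi (−0.01, −0.13 to 0.11), and Col15a1 rose from 21.6 to 121 CPM (2.48). Col4a6 was lower in them at 21 dpi, at 44.4 and 22.4 CPM on 420 and 18 UMIs. Within the pial type Col4a1 had a log2 ratio of −0.54 and was not called, Col4a2 fell by 0.65 and Col18a1 by 0.62 on that scale, and Col15a1 rose from 64.9 to 230 CPM (1.82). In arachnoid-like nuclei Col4a1 fell from 480 to 121 CPM (−1.98) and Col18a1 from 163 to 40.3 CPM (−2.01), and in late inner-like nuclei Col4a1 rose from 194 to 371 CPM (0.94) and Col4a5 from 35.9 to 121 CPM (1.75). Thus Col15a1, which did not pass 1.5-fold in the class as a whole, was higher at 21 dpi within both the pial and the myofibroblast-like nuclei.

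The comparison of Tgfbr2-cKO with Ctrl addresses the role of TGFβ signalling in fibroblasts. At 7 dpi, 1 of 7 members tested was called: Col15a1 rose from 27.5 to 62.1 CPM (log2 ratio 1.18, 0.88 to 1.46). It rested on 131 UMIs in 43 of 329 nuclei, of which 5 nuclei held 39.7%. In this comparison the summed fibroblast markers of the class went from 8014 to 4209.9 CPM and the neuron markers from 9.18 to 234 CPM, and their part in these values was not tested. Col4a1 was at 722 and 598 CPM (−0.27, −0.36 to −0.19) and Col4a2 at 570.1 and 425 CPM (−0.42, −0.52 to −0.32), both lower by less than 1.5-fold; Col4a5 (−0.17), Col4a6 (−0.12) and Col18a1 (0.26) were within the same bounds, and no Col4a3 UMI was found in the 329 nuclei. Of the 12871 genes tested 21.8% were called, 13.4% higher and 8.38% lower, and the medians were 0.07 over all genes and −0.12 over the members. Weighted alike over the myofibroblast-like and pial nuclei, Col4a5 and Col4a6 had log2 ratios of −0.70 and −0.78 and Col15a1 of 0.88. Within myofibroblast-like nuclei Col4a5 fell from 143 to 55.8 CPM (−1.36) and Col4a6 from 44.4 to 21.9 CPM (−1.02), while Col18a1 rose from 168 to 283 CPM (0.75). Within the pial type Col4a6 fell from 814 to 485 CPM (−0.75). Col4a6 was thus lower within both sub-clusters and near no difference in the class, of which the pial type was 38.6% in Tgfbr2-cKO and 25.1% in Ctrl. Female and male nuclei gave 1.92 and 1.01 for Col15a1 in the class, and 0.31 and −0.61 for Col4a5.

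At 21 dpi, 5 of 8 members were called between Tgfbr2-cKO and Ctrl fibroblasts, 4 higher and 1 lower, against 28.1% of the 15006 genes tested, 14% higher and 14.2% lower. Col4a6 rose from 47.8 to 106 CPM (1.15, 1.03 to 1.28) and Col18a1 from 50.4 to 81.2 CPM (0.69, 0.55 to 0.82). Col4a4 rose from 3.61 to 9.29 CPM (1.37, 0.92 to 1.80), and Col4a3 went from 1.64 to 2.73 CPM (0.73, −0.06 to 1.48), a call whose interval includes no difference and whose value was −0.89 without the 5 nuclei of most UMIs in each library. Col4a1 fell from 299 to 199 CPM (−0.59, −0.67 to −0.51), whereas Col4a2 was at 239.7 and 189.9 CPM (−0.34) and was not called, nor were Col4a5 (0.09) and Col15a1 (0.18, −0.05 to 0.41). The median was 0.44 over the members and −0.01 over all genes. Thus Col4a1 was lower and Col4a6 higher in the same class. In this comparison the summed markers of the fibroblast class went from 6539 to 1773 CPM for fibroblasts, from 1048 to 1579.7 CPM for astrocytes, the class with the highest median Col4a6 and Col4a4, and from 7.12 to 79.4 CPM for neurons, and their part in these values was not tested. The astrocyte markers Slc1a3, Gja1 and Slc4a4 were also raised in the arachnoid cluster, which is part of the fibroblast class.

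The late values of Col4a1, Col4a6, Col4a4, Col18a1 and Col15a1 moved when the mix was weighted alike, and those of Col18a1 and Col15a1 changed direction. Over the dural-like, arachnoid-like and pial nuclei weighted alike, which leaves out the unnamed sub-cluster, Col4a1 had a log2 ratio of −0.70, Col4a6 of 0.65 and Col4a4 of 0.71, but Col18a1 had −0.37 and Col15a1 −1.24, the opposite direction to the class. Within the pial type Col4a6 rose from 547 to 1106 CPM (1.02, 0.85 to 1.18) and Col4a5 from 776 to 1173 CPM (0.60), while Col4a1 fell from 632 to 385 CPM (−0.72), Col18a1 from 383 to 170 CPM (−1.17) and Col15a1 from 230 to 89.1 CPM (−1.37). In dural-like nuclei Col4a5 fell from 103 to 26.2 CPM (−1.97) and Col4a1 from 242 to 150 CPM (−0.69), and in arachnoid-like nuclei Col4a1 fell by 0.77 on the log2 scale. The rise of Col4a6 was not seen in dural-like nuclei, at 13.4 and 3.58 CPM on 194 and 3 UMIs. In arachnoid-like nuclei Col4a6 was at 78.5 and 83.6 CPM. Without the arachnoid-like nuclei, 47.8% of the Tgfbr2-cKO fibroblasts at 21 dpi, the class value of Col4a1 was −0.17 and its call ended. In female and male nuclei the log2 ratio was −0.87 and −0.31 for Col4a1, 1.15 and 1.67 for Col4a6, 1.58 and 1.07 for Col4a4, 0.03 and 1.20 for Col18a1, and −0.46 and 0.64 for Col15a1. Col4a6 was thus called higher in both sexes, while Col18a1 was higher in the male nuclei and near no difference in the female.

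ADWA11, the antibody against the integrin that activates latent TGFβ, was compared with Ctrl at the same times, and these comparisons share their Ctrl libraries with those of Tgfbr2-cKO. At 7 dpi none of 7 members tested passed 1.5-fold, against 18.4% of 14820 genes, 12.3% higher and 6.09% lower. The member farthest from no difference was Col4a6, at 211 and 146 CPM (−0.53, −0.60 to −0.47), with −0.60 in female and −0.42 in male nuclei. Col4a1 was at −0.21, Col4a2 at −0.27, Col4a5 at −0.33 and Col18a1 at 0.30 on the log2 scale, and the median was −0.21 against 0.07 over all genes. Within myofibroblast-like nuclei Col4a6 fell from 44.4 to 18.4 CPM (−1.27) and Col4a5 from 143 to 93.6 CPM (−0.62), while Col18a1 rose from 168 to 283 CPM (0.75).

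At 21 dpi, 3 of 8 members were called lower with ADWA11, against 14.4% of 15707 genes called, 7.86% higher and 6.54% lower. Col15a1 fell from 22.0 to 7.81 CPM (−1.496, −1.74 to −1.26), Col4a6 from 47.8 to 21.8 CPM (−1.13, −1.28 to −0.99) and Col4a5 from 147 to 75.5 CPM (−0.96, −1.04 to −0.88). Female and male nuclei gave −1.58 and −1.31 for Col15a1, −0.87 and −1.08 for Col4a6, and −1.02 and −0.84 for Col4a5, so each of the 3 was lower in both sexes. Col4a1 was at 299 and 215 CPM (−0.47, −0.52 to −0.42) and was not called, with −0.92 in female and −0.17 in male nuclei; Col4a2 (−0.35) and Col18a1 (0.42) were not called either. The medians were −0.45 over the members and 0.01 over all genes. The summed endothelial markers of the fibroblast class went from 273 to 149.6 CPM in this comparison, and their part in the Col15a1 value was not tested. In the ADWA11 library 78.2% of fibroblasts were dural-like. With the sub-clusters weighted as in Ctrl the log2 ratios were −0.83 for Col15a1, −0.74 for Col4a6, −1.004 for Col4a5 and −0.53 for Col4a1. Within the dural-like sub-cluster Col4a5 fell from 103 to 52.7 CPM (−0.96) and Col4a6 from 13.4 to 2.72 CPM (−2.30). In the pial type Col4a6 was at 547 and 481 CPM (−0.19) and was not called, with 703 of the Ctrl and 375 of the ADWA11 UMIs, whereas Col4a1 fell from 632 to 294 CPM (−1.10), Col4a2 from 448 to 232 CPM (−0.95) and Col15a1 from 230 to 92.4 CPM (−1.31).

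Set side by side at 21 dpi, Col4a6 in fibroblasts was at 47.8 CPM in Ctrl, 21.8 CPM with ADWA11 and 106 CPM in Tgfbr2-cKO, and Col4a5 at 147, 75.5 and 156 CPM. Col4a1 was at 299, 215 and 199 CPM. Both comparisons share the Ctrl library, and the ADWA11 value of Col4a1 was not called.

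**Figure D4:**
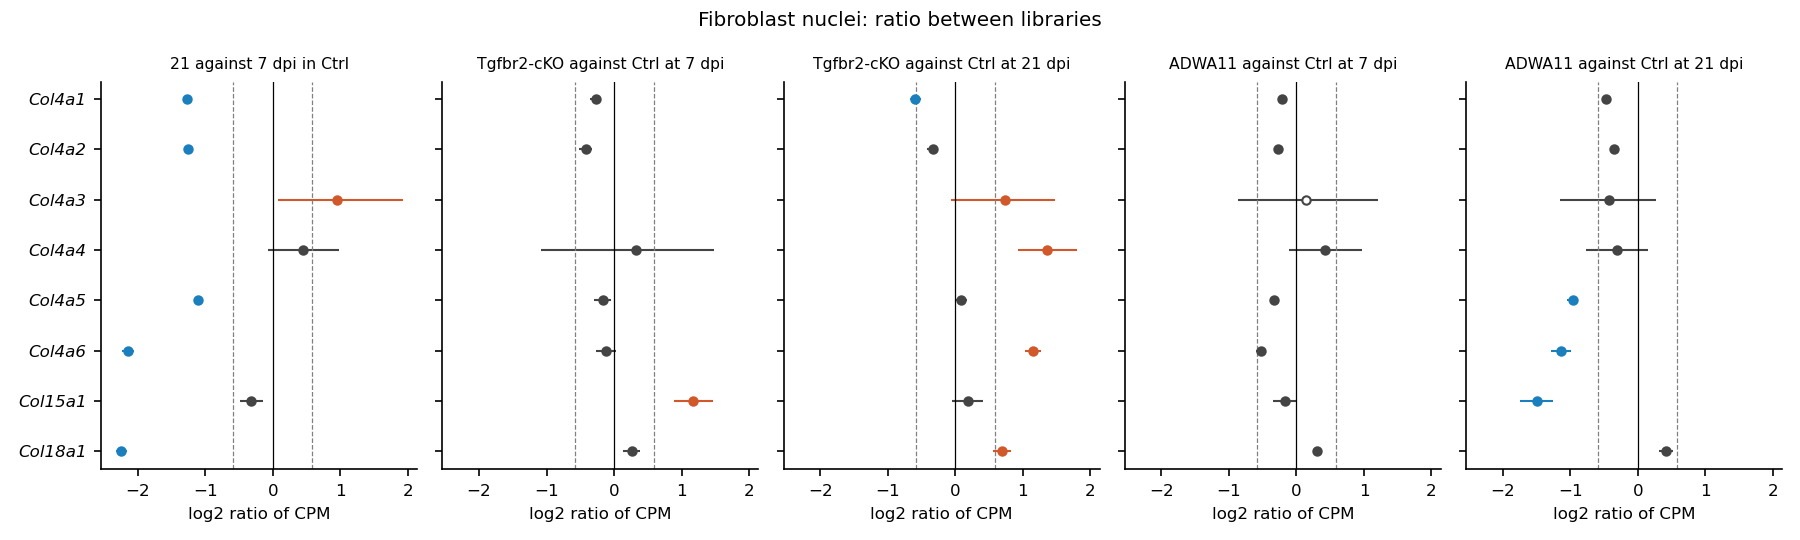
Log2 ratio of each member in fibroblasts (horizontal axis) for each comparison, with exact 95% intervals of the counts; dashed lines mark 1.5-fold, blue is lower, orange higher and grey neither, and open symbols have fewer than 50 UMIs. Col18a1 lies at −2.24 for 21 against 7 dpi, and Col4a6 at 1.15 in Tgfbr2-cKO and −1.13 with ADWA11 at 21 dpi.

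**Figure D5:**
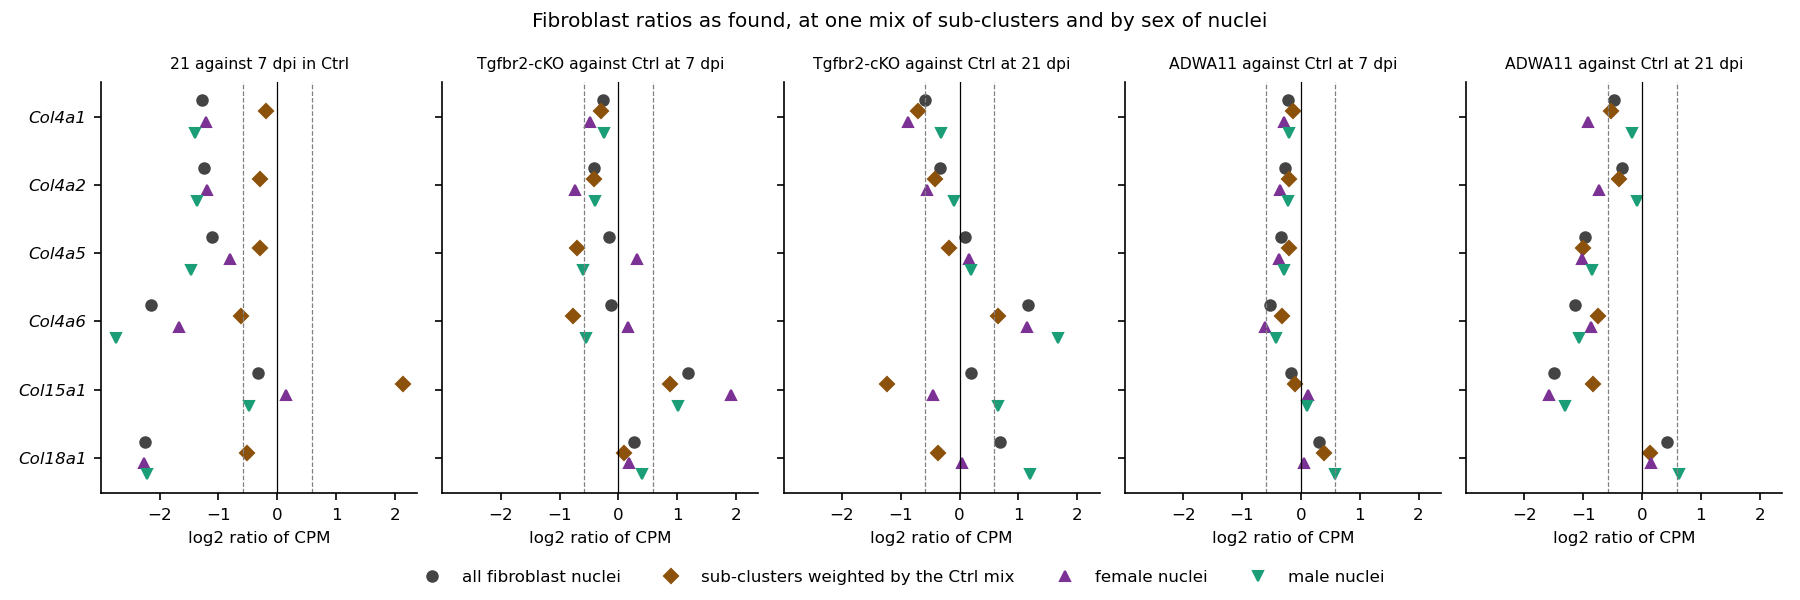
Log2 ratio of 6 members in fibroblasts (Col4a3 and Col4a4 left out) as in the class, with the shared sub-clusters weighted alike, and in female and in male nuclei. The Col4a1 value of 21 against 7 dpi moves from −1.27 to −0.18 under weighting and is −1.22 and −1.40 in the sexes.

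In endothelial nuclei Col4a1, Col4a2, Col15a1 and Col18a1 were lower at 21 dpi and Col4a5 was not. At 21 against 7 dpi in Ctrl, Col4a1 fell from 1161 to 547 CPM (−1.09, −1.18 to −0.99), Col4a2 from 779.6 to 423 CPM (−0.88), Col15a1 from 198 to 89.8 CPM (−1.14) and Col18a1 from 292 to 54.3 CPM (−2.43). In all, 5 of 6 members tested were called, against 27.4% of genes; the one called higher was Col4a6, from 15.3 to 26.5 CPM (0.80, 0.18 to 1.46), a value that was −0.30 in female nuclei, with 51.2% of the late UMIs in 5 nuclei. Col4a5 was at 29.5 and 34.2 CPM (0.22). Over the same time the summed level of the 8 fibroblast markers in Ctrl endothelial nuclei went from 1355 to 2674 CPM. With Tgfbr2-cKO at 21 dpi, Col4a2 rose from 423 to 746 CPM (0.82) and Col18a1 from 54.3 to 116 CPM (1.10), Col4a1 was at 547 and 781 CPM (0.51, 0.37 to 0.66) and Col15a1 at 89.8 and 92.8 CPM (0.05). Col4a5 fell from 34.2 to 12.4 CPM (−1.47) and Col4a6 from 26.5 to 1.55 CPM (−4.10, −9.42 to −1.58), so that 4 of 6 were called, against 26.7% of genes. The Tgfbr2-cKO class had 133 nuclei and 1 Col4a6 UMI, and 5 nuclei held 50.7% of its 75 Col18a1, 75% of its Col15a1, 24.5% of its Col4a2 and 27.1% of its Col4a1 UMIs; Ctrl had 86 Col4a6 UMIs. With the 5 nuclei of most UMIs left out of each library, the Col18a1 value was 0.34 and its call ended, that of Col4a2 was 0.62 and that of Col4a6 −1.44. With ADWA11, 1 of 5 members was called at 7 dpi (15.9% of genes) and 3 of 6 at 21 dpi (15.4% of genes). Endothelial Col4a1 was at 1536 against 1161 CPM (0.40) and at 782 against 547 CPM (0.52), in neither case past 1.5-fold; Col4a5 fell at both times (−2.10 and −1.77), and at 21 dpi Col4a6 fell by 1.98 on the log2 scale and Col15a1 rose from 89.8 to 158 CPM (0.82). The summed level of the 8 fibroblast markers in endothelial nuclei was 1355, 972, 2674, 1912 and 249 CPM in the order of the 5 libraries with a value, and was thus higher in Ctrl than in ADWA11 at both times and than in Tgfbr2-cKO at 21 dpi, as Col4a5 and Col4a6 were. The part of fibroblast RNA in the endothelial Col4a5 and Col4a6 levels was not tested.

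Mural nuclei, 66 to 146 in the libraries with a value, had the highest median Col4a1 level of the classes, and it fell from 1665 to 804 CPM between 7 and 21 dpi in Ctrl (−1.05). Col4a2 fell from 1209.5 to 599 CPM (−1.01), Col15a1 from 186 to 71.3 CPM (−1.38) and Col18a1 from 647 to 229.6 CPM (−1.495). In all, 4 of 6 members tested were called, all lower, against 24.4% of genes; Col4a5 (−0.51, −1.10 to 0.072) and Col4a6 (0.30, −0.51 to 1.11) were not called. In Tgfbr2-cKO at 21 dpi 4 of 7 members were called, 3 higher and 1 lower, against 28.3% of genes. Col4a1 was at 804 and 595 CPM (−0.43) and was not called, Col18a1 fell from 229.6 to 140.0 CPM (−0.71), and Col4a5 rose from 68.1 to 115 CPM, on 43 and 36 UMIs (0.75, 0.070 to 1.42), a value that became −0.31 without the 5 nuclei of most UMIs in each library. Col4a6 passed 1.5-fold on 23 against 30 UMIs (0.62, −0.23 to 1.46), with an interval that includes no difference. Mural Col4a3 rose from 33.3 to 121 CPM (1.86, 1.06 to 2.71), that is from 21 to 38 UMIs; 17 of 66 nuclei held one and 1 nucleus held 13. In this comparison the summed level of the fibroblast markers in mural nuclei went from 3010.0 to 652 CPM and that of the astrocyte markers from 285 to 557 CPM, and their part in these values was not tested. With ADWA11, 3 of 5 members were called at 7 dpi (17% of genes) and 2 of 6 at 21 dpi (17.9% of genes). At 7 dpi Col18a1 fell from 647 to 398 CPM (−0.70) and Col15a1 from 186 to 117 CPM (−0.66, −1.13 to −0.21), with 59.0% of the ADWA11 and 40.8% of the Ctrl Col15a1 UMIs in 5 nuclei. At 21 dpi Col15a1 passed 1.5-fold on 18 against 45 UMIs (−0.69, −1.57 to 0.13), with an interval that includes no difference.

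Astrocytes, the cells of the glia limitans, had the highest median Col4a5 and Col4a6 levels among the classes. Here the Tgfbr2-cKO libraries stood lower at both times. At 7 dpi Col4a6 fell from 696 to 163 CPM (−2.09, −2.27 to −1.92) and Col4a5 from 606 to 202 CPM (−1.58, −1.75 to −1.42), and 4 of 5 members tested were called, all lower, against 32.3% of genes; of these, Col4a1 (−0.66) became 0.72 when the myeloid level was subtracted. At 21 dpi Col4a6 fell from 508 to 215 CPM (−1.24) and Col4a5 from 443 to 253 CPM (−0.81), and 5 of 7 were called, against 22.6% of genes, 4 lower and Col4a4 higher, from 24.0 to 38.3 CPM (0.67). Female and male nuclei gave −3.40 and −0.92 for Col4a6 at 7 dpi and −1.73 and −0.99 at 21 dpi, and −2.10 and −0.70, then −1.17 and −0.45, for Col4a5. The 2 genes were thus lower in both sexes at both times, and Col4a6 by more than 1.5-fold in each. The astrocyte class itself differed between these libraries: the summed level of the 8 astrocyte markers was 3380 CPM in Ctrl and 11344 CPM in Tgfbr2-cKO at 7 dpi, that of the 10 markers of oligodendrocyte precursors 6168 and 1020 CPM, and that of the 8 fibroblast markers 770 and 85.6 CPM. At 21 dpi the same sums were 5714 and 10562 CPM, 2124 and 829 CPM, and 1293 and 95.4 CPM. The Tgfbr2-cKO library at 7 dpi also held 6057 neuronal nuclei, against 136 in Ctrl. The part of these differences in the Col4a5 and Col4a6 values was not tested.

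Over time in Ctrl astrocytes Col4a4 rose from 7.93 to 24.0 CPM (1.60) and Col18a1 fell from 57.9 to 20.6 CPM (−1.49), while Col4a5 and Col4a6 both had a log2 ratio of −0.45; 2 of 6 members were called, against 35% of genes. Over the same time the summed astrocyte markers of the class went from 3380 to 5714 CPM and those of oligodendrocyte precursors, in which Col18a1 had a median of 43.1 CPM, from 6168 to 2124 CPM, and their part in these values was not tested. With ADWA11, Col4a6 was at 503 against 696 CPM at 7 dpi (−0.47) and at 407 against 508 CPM at 21 dpi (−0.32), and Col4a5 at −0.21 and −0.24. One of 5 members was called at 7 dpi, Col18a1 (−1.05, but 0.17 with clustering of log-normalised counts), against 17.5% of genes, and 0 of 6 at 21 dpi, against 13.3%. The marker sums of the ADWA11 class were nearer to Ctrl than those of Tgfbr2-cKO were, at 3660 CPM for astrocyte, 4829 CPM for precursor and 505 CPM for fibroblast markers at 7 dpi, and 4993, 1859.5 and 965 CPM at 21 dpi. The comparisons share the Ctrl libraries, and the difference between them was not tested.

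Myeloid nuclei, 23023 of the 61231 used, held 22.4% of the Col15a1 UMIs, a larger share than of any other member. Its level there was 17.7, 5.71, 20.8, 15.0, 4.65 and 21.0 CPM, with the ADWA11 libraries lowest at both times (−1.63, −1.86 to −1.41, and −1.69, −2.004 to −1.38, against Ctrl). Female nuclei gave −1.69 and −1.60 and male nuclei −1.36 and −1.80. The mix of myeloid clusters moved with it: a cluster with the microglial genes Siglech, Sall1 and Cx3cr1 had Col15a1 at 27.9 and 31.0 CPM at 7 dpi and 27.4 and 43.1 CPM at 21 dpi in Ctrl and Tgfbr2-cKO, and held 10 and 1 nuclei in the ADWA11 libraries. In the largest myeloid cluster over all libraries Col15a1 was at 17.0, 6.57, 12.8, 15.5, 1.58 and 14.1 CPM, lowest in the ADWA11 libraries, the late one on 2 UMIs in 360 nuclei. The cluster that held 4913 of the late ADWA11 nuclei had Col15a1 at 11.4, 5.59, 3.597, 7.66, 4.96 and 10.5 CPM, a smaller difference between ADWA11 and Ctrl than in the class, and there the Tgfbr2-cKO library at 7 dpi, with 52 nuclei and 1 UMI, was the lowest.

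Type IV collagen needs enzymes, chaperones and partners, and 4 lists of such genes were counted in fibroblasts by the same rule, beside which the share of all genes called was 33.8% with time (20.8% higher and 13% lower), 21.8% and 28.1% in Tgfbr2-cKO and 18.4% and 14.4% with ADWA11, at 7 and 21 dpi. Of 24 partners in the sheet (laminins, nidogens, perlecan and others), 4 of 21 tested were higher and 7 lower at 21 against 7 dpi in Ctrl, led by Ntn4 (2.00) and Npnt (1.62) upward and by the laminin chains Lamb1 (−2.91) and Lamc3 (−2.47) downward. In Tgfbr2-cKO 4 were higher and 4 lower of 19 at 7 dpi, among them Agrn (1.06) and Lama3 (−4.22), and 6 higher and 5 lower of 22 at 21 dpi, with Lama1 (1.94) and Frem2 (1.85) higher and Lama3 (−3.61) and Smoc2 (−1.38) lower. With ADWA11, 1 was higher and 3 lower of 20 at 7 dpi, and 0 higher and 6 lower of 22 at 21 dpi, led by Lamc3 (−1.62) and Lama3 (−1.45). The share of partners called higher with time, 4 of 21, was near that of all genes. The medians over the partners, from −0.34 to 0.13, stood beside medians over all genes of −0.01 to 0.07. Lama1 and Lamc3 are also marker genes of the pial type, so the mix of sub-clusters moves with them.

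Among 18 genes of collagen assembly (prolyl and lysyl hydroxylases, chaperones, cross-linking enzymes), 17 were tested. The counts of higher and lower were 1 and 4 at 21 against 7 dpi, 2 and 4 and then 1 and 8 in Tgfbr2-cKO at 7 and 21 dpi, and 0 and 2 with ADWA11 at each time; over both directions these shares are near or below those of all genes with time and with ADWA11, and the lower calls alone stand beside 13% with time and 6.09% and 6.54% with ADWA11. At 21 dpi in Tgfbr2-cKO the lysyl hydroxylase Plod2 (−1.87) and the prolyl hydroxylase subunit P4ha3 (−1.58) led the fall and P4ha2 (0.78) was the one higher; the median of the list was −0.53 against −0.01 over all genes, where with time it was 0.012 against 0.062. P4ha3 was called lower in all 5 comparisons (−0.68, −0.85, −1.58, −1.02 and −0.70). Of 9 collagen receptors, all tested, the integrin chain Itga11 fell at 7 dpi both in Tgfbr2-cKO (−1.60) and with ADWA11 (−0.82), and at 21 dpi in Tgfbr2-cKO (−2.13), and Itga1, an integrin chain that binds type IV collagen, rose in Tgfbr2-cKO at 21 dpi (1.01); the counts were 1 higher and 1 lower with time, 2 and 1 and then 3 and 2 in Tgfbr2-cKO, and 0 and 1 and then 0 and 0 with ADWA11. Of 9 genes of collagen breakdown and its inhibitors, 6 to 8 were tested, and 1 or 2 were higher and 1 or 2 lower in each comparison. The only gene called lower with ADWA11 was the inhibitor Timp3 (−0.90 and −1.33), and the inhibitor Timp1 (−0.73) was lower in Tgfbr2-cKO at 21 dpi. The stromelysin Mmp3 rose in every comparison, by 1.13 with time, 3.09 and 2.38 in Tgfbr2-cKO and 3.57 and 3.15 with ADWA11 on the log2 scale.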

How the data were processed

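Per the labels and the file headers, the deposited values are raw UMI counts per gene and barcode that the authors made with Cell Ranger (7.2.0 in the file headers, 7.1.0 with mm10 in the submitters' processing notes) from DAPI-sorted nuclei, 1 library for each of the 6 groups. The members and the gene lists were chosen with earlier results of these data known. From the counts, nuclei within the 2.5 percentile bounds of UMIs, genes and mitochondrial share of their library were kept, doublets were called at 0.8% per 1000 barcodes (6339 called), and a sub-cluster of which more than 50% were called was left out. Seurat 5.3.0 with sctransform 0.4.2 clustered the nuclei on 3000 variable genes and 30 principal components, at a resolution of 0.5, and the fibroblasts again at 0.2 without the members and the partner lists. A cluster was named where at least 3 markers of a type, and more than of any other type, were raised 2-fold and in 5% of its nuclei. It was left unnamed if its 10 leading genes held more markers of another type. A low UMI count with no marker of its type among those genes also left it unnamed. The arachnoid cluster was taken with the fibroblasts. A cluster of low UMI count and one led by bone-matrix genes raised fibroblast markers but were left unnamed by these rules.

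Sums of UMIs over the nuclei of a class in a library were given as CPM with exact Poisson intervals, and ratios with exact conditional binomial intervals (scipy 1.17.1), both at 95%. Where a library held no UMI, the floor was 3 counts. A gene was called past 1.5-fold with 50 UMIs or more. The text names all 8 members, genes among the 3 most like each member with 500 UMIs or more (among genes with 1000 UMIs or more, log2 of CPM plus a pseudocount of 1), and up to 2 genes per direction of each partner list. One gene that this rule names is not reported here. TMM factors came from edgeR 4.0.16. The script was tested on simulated data.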

Additional observations from a re-analysis of the deposited data

Results flagged for a closer look

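Col4a5 in mural nuclei was set apart because the ADWA11 library lay on opposite sides of Ctrl at the 2 times. Its level was 96.7 CPM in Ctrl and 26.9 CPM with ADWA11 at 7 dpi (log2 ratio −1.84, −2.79 to −0.996), and 68.1 and 120.0 CPM at 21 dpi (0.82, 0.20 to 1.44). The difference between the times was not tested, there being 1 library for each group. Of the 65 mural Col4a5 UMIs in Ctrl at 7 dpi, 5 nuclei held 78.5%.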

How the results depend on the processing

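No paired analysis was run; values in the female and in the male mouse of each library are given below. Over the alternatives, 137 values and counts that answer a comparison moved by less than their counting interval, and 57 moved by more. For counts the bound was 1.5 times. Among the values of single genes 919 moved by less, 241 by more and 7 were labelled reversed. That label is narrower than a change of sign. The sign was kept for 78 of 90 values in female nuclei, 73 of 84 in male nuclei and 31 of 38 under the Ctrl mix. With the 5 nuclei of most UMIs left out it was kept for 104 of 114. Counts of members called in fibroblasts were 6 at 21 against 7 dpi, 1 and 5 in Tgfbr2-cKO, and 0 and 3 with ADWA11, at 7 and 21 dpi. A 2-fold threshold gave 2 in Tgfbr2-cKO at 21 dpi, a minimum of 200 UMIs 3, and a minimum of 10 UMIs 2 at 7 dpi. The share of all genes called is given above for the main settings only. No such share stands beside the counts under the alternatives, here and in each sex below. Whether the calls over all genes moved likewise was not tested. With sub-clusters weighted by the Ctrl mix the counts were 3 at 21 against 7 dpi and 3 in Tgfbr2-cKO at 7 dpi, Col4a1 was −0.18 (time), −0.70 (Tgfbr2-cKO, 21 dpi), −0.14 and −0.53 (ADWA11, 7 and 21 dpi), and Col18a1 in Tgfbr2-cKO at 21 dpi reversed to −0.37. Means of CPM per nucleus gave counts of 1 (ADWA11, 7 dpi) and 3 (Tgfbr2-cKO, 21 dpi), fibroblast Col4a1 values of −1.41 (time), −0.41 and −0.68 (Tgfbr2-cKO) and −0.30 (ADWA11, 7 dpi), and endothelial values of 0.29 (ADWA11, 7 dpi) and 0.22 (Tgfbr2-cKO, 21 dpi). With the 5 nuclei of most UMIs left out, Col4a1 was −0.44 and −0.68 in Tgfbr2-cKO fibroblasts and 0.29 in endothelial nuclei at 21 dpi, and at 21 dpi Col4a3 in fibroblasts (−0.89) and Col4a5 in mural nuclei (−0.31) reversed. TMM scaling gave Col4a1 values of −1.34, −0.40 and −0.26 in fibroblasts (time, Tgfbr2-cKO and ADWA11 at 7 dpi) and −1.21 and 0.32 in endothelial nuclei (time, ADWA11 at 7 dpi). Without any called doublet the endothelial values were −0.93 (time) and 0.32 (Tgfbr2-cKO, 21 dpi). Subtracting the myeloid level gave a count of 1 with ADWA11 at 7 dpi and reversed Col4a1 in Tgfbr2-cKO astrocytes at 7 dpi (0.72). Clustering of log-normalised counts gave Col4a1 values of −1.23 (time), −0.14 (ADWA11, 7 dpi) and −0.48 (Tgfbr2-cKO, 21 dpi), and reversed Col18a1 in ADWA11 astrocytes at 7 dpi (0.17). With the members kept among the variable genes Col4a1 was −0.17 with ADWA11 at 7 dpi.

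In female nuclei the counts were 2 and 3 in Tgfbr2-cKO and 1 and 5 with ADWA11, fibroblast Col4a1 was −1.22 (time), −0.48 and −0.87 (Tgfbr2-cKO) and −0.28 and −0.92 (ADWA11), endothelial Col4a1 was −1.25 (time), 0.57 and 0.78 (ADWA11), and endothelial Col4a6 with time reversed to −0.30. In male nuclei the count in Tgfbr2-cKO at 7 dpi was 2, fibroblast Col4a1 was −1.40 (time), −0.31 (Tgfbr2-cKO, 21 dpi) and −0.17 (ADWA11, 21 dpi), endothelial Col4a1 was −0.86 (time), 0.069 and 0.33 (ADWA11), and Col18a1 in Tgfbr2-cKO astrocytes at 21 dpi reversed to 0.39. The other 3 alternatives were chosen after seeing the data. Leaving out the arachnoid-like nuclei gave Col4a1 values of −1.17 (time), −0.18 and −0.17 (Tgfbr2-cKO) and −0.084 (ADWA11, 7 dpi), the low-UMI cluster counted as fibroblasts gave −0.18 (ADWA11, 7 dpi), and the bone-matrix cluster so counted gave −0.53 (ADWA11, 21 dpi). The cause of these moves was not tested. The depth limits Col4a3 and Col4a4 most, with 402 and 1526 UMIs in all.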
